A study of Mus musculus with 8 samples.

Results

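The mitochondrial enzymes of the tricarboxylic acid (TCA) cycle were examined in hearts in which Mettl3 was targeted by a Cre made in cardiomyocytes. The members are the 9 genes Cs, Idh2, Idh3a, Idh3b, Idh3g, Ogdh, Sucla2, Fh1 and Mdh2, chosen by gene symbol, and each was found as 1 row among the 23045 genes of the table. Total RNA of mouse heart was sequenced from 4 WT and 4 Mettl3 KO samples. WT hearts carried Mettl3 lox/lox without Cre. Mettl3 KO hearts carried Mettl3 lox/lox together with alphaMHC-MerCreMer, a Cre recombinase that is made in cardiomyocytes and becomes active with tamoxifen. At an age of 10 to 16 weeks, both groups received tamoxifen by intraperitoneal injection on 7 consecutive days at 100 µg per g body weight. The interval from tamoxifen to harvest is not given in the sources used here. Since the controls lacked the transgene, effects of Cre and of Mettl3 loss cannot be told apart, and Cre was not directed to the other cell types of the heart.

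The TCA cycle runs in the mitochondrial matrix, where it oxidises the acetyl group of acetyl-CoA to carbon dioxide and hands the electrons to NADH and FADH2 for the respiratory chain. Heart muscle depends on it almost without pause, feeding it mainly from fatty acids and, through the pyruvate dehydrogenase complex, from carbohydrate. METTL3 is the catalytic subunit of the complex that writes m6A onto mRNA, a mark that can alter the processing and the stability of a transcript.

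A METTL3 complex favours the letters GGACT, and these were counted in the longest protein-coding transcript of each member. Ogdh held 7 matches, Sucla2 held 6, Cs held 5, Idh3a and Idh3g held 3 each, Idh3b and Mdh2 held 1 each, and Idh2 and Fh1 held 0. Per kb of transcript the members had a median of 1.16 matches, against 1.05 over the 14322 protein-coding genes that could be matched. At least 1 match was present in 77.8% of members and in 92.7% of those genes. Sucla2 had the highest density of the members, 2.69 per kb, and its 6 matches are printed because they mark where a METTL3 target motif could lie in the member richest in it. Each stretch is read from the spliced transcript, with the match in capitals and the GRCm38 position of the match (plus strand) after its name.

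Sucla2 match 1, 5' UTR in exon 1, chr14:73552798-73552802: gacgggtcGGACTcagaaatg
Sucla2 match 2, coding part of exon 2, chr14:73560474-73560478: acaagcatGGACTacaagtgc
Sucla2 match 3, coding part of exon 6, chr14:73581714-73581718: aacattgtGGACTctgcagca
Sucla2 match 4, coding part of exon 7, chr14:73590830-73590834: gatcttcaGGACTggagtcag
Sucla2 match 5, coding part of exon 8, chr14:73591064-73591068: acacggagGGACTccagccaa
Sucla2 match 6, 3' UTR in exon 11, chr14:73595616-73595620: ctgagaatGGACTgtttatat

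A match is a description of the sequence. No methylation was measured in these files.

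Promoters were examined because nuclear factors such as the estrogen-related receptors (ERR), NRF1 and the ETS factor GABP are known to drive genes of mitochondrial energy metabolism. RefSeq promoters (GRCm38.p6) were matched for 8 of the 9 members, Idh3a being the exception, and searched on both strands. The ERR letters AAGGTCA were found in the promoters of Ogdh alone, against 5.38% of the 27025 genes with a promoter in the table (4.72% of 32851 promoters). The NRF1 letters GCATGCGC also occurred in Ogdh alone, against 3.05% of genes. The ETS letters CCGGAAG occurred in Idh3b and Idh3g, against 9.93% of genes. The GC box letters GGGCGG occurred in 6 members (Cs, Idh2, Ogdh, Sucla2, Fh1 and Mdh2), against 38.2% of genes. The stretches that hold the ERR, NRF1 and ETS letters follow, 30 bases each, with the letters searched or their reverse complement in capitals.

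Ogdh, ERR, plus strand, chr11:6292154-6292183: ggacacggcgcTGACCTTggtgcctgcggc
Ogdh, NRF1, plus strand, chr11:6292532-6292561: ctaggtgttgtGCGCATGCgtaactcaact
Idh3b, ETS, minus strand, chr2:130284438-130284467: gaccgcgctcgCTTCCGGcgtcacttcccc
Idh3g, ETS, minus strand, chrX:73786983-73787012: tgctctaggcaCCGGAAGggggcgtaagaa

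The targeted gene was read as a check of the labels. Mettl3, at mm39 chr14:52532298-52542585 on the minus strand, had normalized read counts of 105, 133, 118 and 107 in WT hearts and of 74, 68, 69 and 78 in Mettl3 KO hearts. Every Mettl3 KO library lay below every WT library, and the level fell by 37.1% (95% interval -45.7% to -27.1%, limma adjusted p = 0.000184). The remaining transcript in heart tissue does not tell how much is left in cardiomyocytes.

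No member of the TCA cycle passed the test in Mettl3 KO hearts. All 9 were tested, 0 had an adjusted p under 0.05, and 0 had an unadjusted p under 0.05, beside 4184 of 20313 genes. Over all genes, 7.91% of those tested were called with limma (adjusted p under 0.05), 4.72% as higher and 3.19% as lower in Mettl3 KO hearts. The groups overlapped for every member, whereas 11.5% of all genes showed no overlap. The estimated log2 fold changes (log2 of the value plus 1) of the members ran from -0.039 for Idh3b to 0.073 for Idh3a with a median of 0.024, and that of all genes tested was -0.0086. The 95% intervals of the 9 members of the percent difference from WT stayed between -9.17% and 12.7%. Larger shifts in these normalized read counts lie outside the intervals. Duplicate reads had been removed, which lowers abundant transcripts, so the limits are for these counts and not for mRNA levels in the tissue. These limits hold for the fit with genotype alone. With the atrial marker level as a covariate, the log2 fold changes were 0.19 for Idh3a and 0.17 for Sucla2. Both lay above these intervals of the 2 genes, and 0 members were called. That atrial level (mean log2 of the value plus 1) was 0 to 2.82 in WT hearts. It was 2.68, 6.26, 6.24 and 7.14 in Mettl3 KO replicates 1 to 4. The covariate fit thus leans on Mettl3 KO replicate 1 for a comparison at a like atrial level. In bulk tissue, fewer cells of a type and less RNA per cell cannot be told apart.

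**Figure D1:**
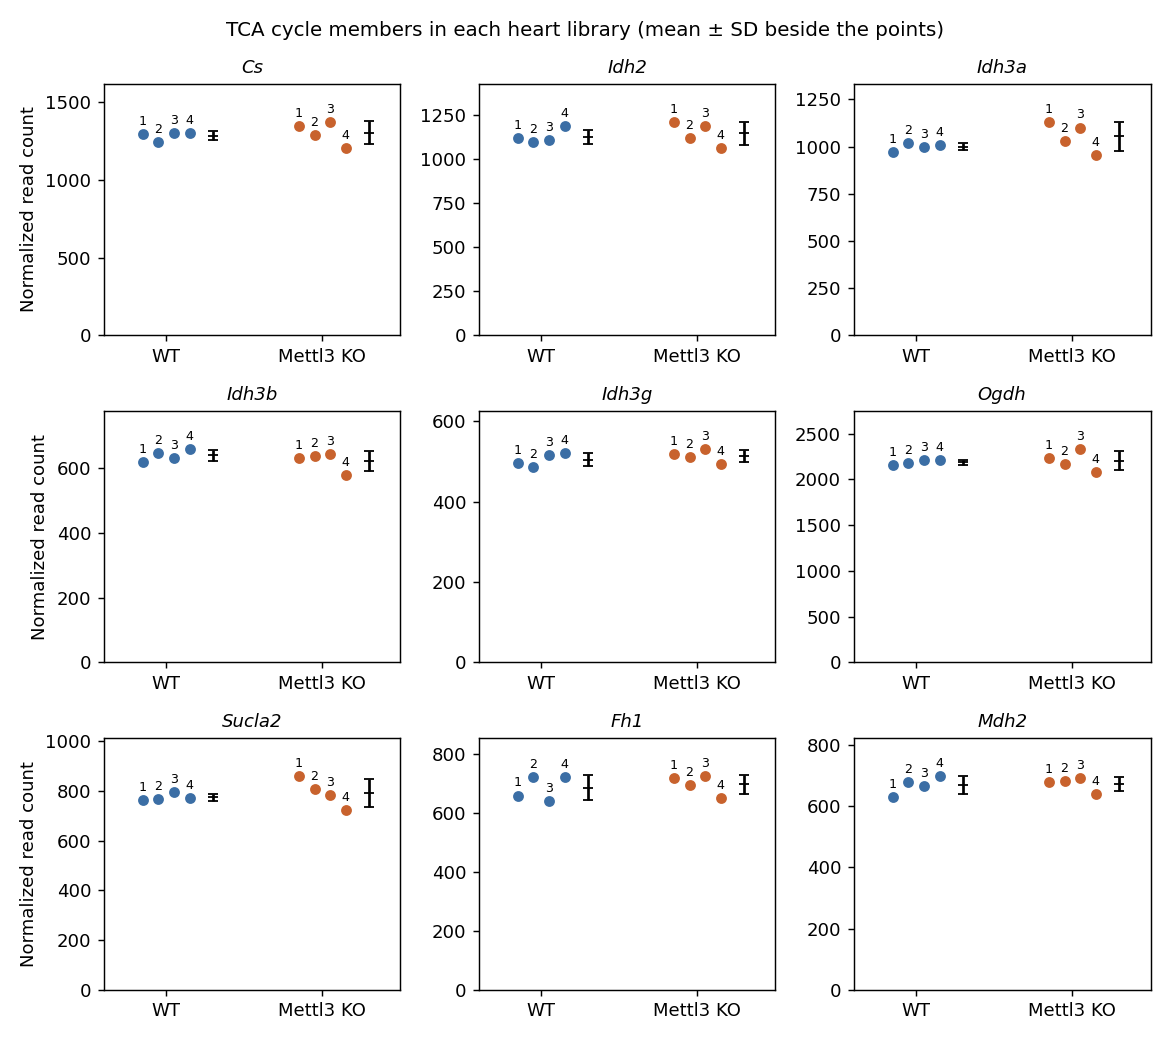
Normalized read counts (vertical axis, from 0) of the 9 members in the 4 WT (blue) and 4 Mettl3 KO (orange) libraries, numbered by replicate, with mean ± SD drawn beside the points. The groups overlap in every panel, and Mettl3 KO replicate 4 is the lowest Mettl3 KO point in all 9.

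Cs encodes citrate synthase, which joins acetyl-CoA to oxaloacetate and so starts the cycle. The gene (ENSMUSG00000005683, mm39 chr10:128173603-128198348, plus strand) had normalized read counts of 1291, 1243, 1300 and 1301 in WT against 1344, 1285, 1371 and 1206 in Mettl3 KO hearts. The Mettl3 KO libraries held the highest and the lowest value of all 8, around means of 1284 ± 27.5 and 1302 ± 73.1 (SD, n = 4 each). The log2 fold change was 0.018, with an interval of -4.72% to 7.65% (limma adjusted p = 0.874). Csl, a citrate synthase-like gene, was listed at 3 to 7 per library, and reads that map to several places had been removed.

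Isocitrate is oxidised to alpha-ketoglutarate in the matrix by separate enzymes. Idh2 encodes the NADP+-dependent enzyme, which also supplies NADPH to the antioxidant systems of mitochondria. Idh2 (ENSMUSG00000030541, mm39 chr7:79744594-79765140, minus strand) had 1117, 1094, 1105 and 1184 normalized reads in WT against 1209, 1118, 1189 and 1064 in Mettl3 KO hearts. The highest and the lowest value again came from Mettl3 KO samples, with a log2 fold change of 0.024 (-4.68% to 8.50%, limma adjusted p = 0.838). A same-strand transcript model, Gm45203, shares 1831 bases with Idh2, and reads that overlapped several genes had not been counted.

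The NAD+-dependent isocitrate dehydrogenase, a rate-controlling step of the cycle, is built from the catalytic alpha subunit of Idh3a with the beta and gamma subunits of Idh3b and Idh3g. Idh3a (ENSMUSG00000032279, mm39 chr9:54493618-54511945, plus strand) had 973, 1018, 999 and 1009 normalized reads in WT against 1130, 1030, 1101 and 953 in Mettl3 KO hearts. Mettl3 KO replicates 1, 2 and 3 lay above all WT libraries, while Mettl3 KO replicate 4 lay below all of them. Under the deposited scaling this was the largest estimate among the members (0.0091 when scaled to the cardiomyocyte markers, and 0.038 without Mettl3 KO replicate 1 to 0.12 without Mettl3 KO replicate 4), a log2 fold change of 0.073 with an interval of -1.87% to 12.7%, and it did not pass the test (unadjusted p = 0.146, limma adjusted p = 0.442).

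Idh3b (ENSMUSG00000027406, mm39 chr2:130121229-130126467, minus strand) had 618, 646, 631 and 657 normalized reads in WT against 629, 637, 643 and 577 in Mettl3 KO hearts. Under the deposited scaling it was the only member whose estimate lay below 0 (scaled to the cardiomyocyte markers, all but Idh3a did), a log2 fold change of -0.039 (-9.17% to 4.35%, limma adjusted p = 0.733). Of its Mettl3 KO libraries, 3 lay within the WT range and replicate 4 lay below it, without which the log2 fold change was -0.0034. Idh3g (ENSMUSG00000002010, mm39 chrX:72822569-72830503, minus strand) had 496, 486, 516 and 522 normalized reads in WT against 518, 511, 531 and 495 in Mettl3 KO hearts. It was the lowest member in reads and the one with the smallest coefficient of variation among Mettl3 KO libraries, with a log2 fold change of 0.025 (-5.20% to 9.19%, limma adjusted p = 0.849).

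Ogdh encodes the decarboxylating subunit of the alpha-ketoglutarate dehydrogenase complex, which makes succinyl-CoA and NADH. Ogdh (ENSMUSG00000020456, mm39 chr11:6241633-6306642, plus strand) had 2156, 2177, 2215 and 2210 normalized reads in WT against 2230, 2164, 2331 and 2086 in Mettl3 KO hearts. It was the member with the most reads and the narrowest interval, a log2 fold change of 0.0076 with an interval of -4.62% to 5.95% (limma adjusted p = 0.945).

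Sucla2 encodes the ADP-forming beta subunit of succinyl-CoA ligase, the step that makes a nucleoside triphosphate directly. Sucla2 (ENSMUSG00000022110, mm39 chr14:73762759-73833582, plus strand) had 764, 766, 795 and 770 normalized reads in WT against 858, 806, 782 and 722 in Mettl3 KO hearts. The WT libraries lay close together (774 ± 14.4, SD, n = 4) and the Mettl3 KO libraries were spread on either side of them (792 ± 56.4, SD, n = 4). The log2 fold change was 0.031 (-4.83% to 9.69%, limma adjusted p = 0.802) in the member with the highest density of GGACT. This estimate was -0.033 when scaled to the cardiomyocyte markers and 0.17 with the atrial marker level as a covariate. It was -0.0084 without Mettl3 KO replicate 1 and 0.075 without Mettl3 KO replicate 4.

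Fh1 encodes fumarase, which hydrates fumarate to malate. Fh1 (ENSMUSG00000026526, mm39 chr1:175427940-175453201, minus strand) had 659, 722, 640 and 721 normalized reads in WT against 717, 694, 724 and 652 in Mettl3 KO hearts. Its WT libraries formed a lower and an upper pair that together covered nearly the whole Mettl3 KO range, and the log2 fold change was 0.024 (-5.55% to 9.51%, limma adjusted p = 0.861). Mdh2 encodes the mitochondrial malate dehydrogenase, which regenerates oxaloacetate. Mdh2 (ENSMUSG00000019179, mm39 chr5:135807334-135819252, plus strand) had 629, 681, 668 and 698 normalized reads in WT against 680, 683, 693 and 641 in Mettl3 KO hearts. All 4 Mettl3 KO values lay within the WT range, and the log2 fold change was 0.012 (-5.84% to 7.94%, limma adjusted p = 0.934).

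The depth of the libraries gives a counting error that can be set beside this spread. Normalized read counts summed to 2839589 to 2916986 per library, from an estimated 2631305 to 3062476 reads, and 467 to 2347 reads stood behind a member's value. Counting error alone gives a coefficient of variation of 2.11% for Ogdh and of 4.39% for Idh3g in WT hearts, where 1.28% and 3.34% were seen. In WT hearts the observed coefficient was below the counting error for 6 members and above it for Idh2, Fh1 and Mdh2. In Mettl3 KO hearts it was above the counting error for 7 members, the exceptions being Idh3g and Mdh2. The widest were Idh3a with 7.51% against a counting error of 3.12% and Sucla2 with 7.12% against 3.60%. Counting error assumes that reads are independent molecules, and whether the spread differs between the genotypes was not tested.

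The same Mettl3 KO libraries were high or low across the members. Mettl3 KO replicate 4 was the lowest of the Mettl3 KO libraries for 9 of 9 members and the lowest of all 8 for 6 of them. The highest Mettl3 KO value belonged to replicate 3 for 6 members and to replicate 1 for the other 3 (Idh2, Idh3a and Sucla2). The 9 members summed to 8703, 8833, 8869 and 9072 normalized reads in WT against 9315, 8928, 9365 and 8396 in Mettl3 KO hearts. As a mean percentage of their WT level, the members stood at 105%, 101%, 105% and 94.7% in Mettl3 KO replicates 1 to 4. The 10 cardiomyocyte markers stood at 109.5%, 102%, 108% and 98.5% in the same libraries. In WT replicates 1 to 4 the members were at 97.7%, 99.9%, 99.7% and 103%, and the cardiomyocyte markers at 98.0%, 99.0%, 96.7% and 106%. Estimated reads were 2631305, 2861621, 2776265 and 3053305 in Mettl3 KO replicates 1 to 4. Mettl3 KO replicate 4, the lowest for the members, thus had the most reads of its group. In WT hearts, replicate 4 had the fewest reads (2730757) and the highest sum of the members. WT replicate 2 had the most reads (3062476), while WT replicate 1 had the lowest sum. The parts of depth after duplicate removal and of cardiomyocyte RNA in the members' values were not tested.

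Levels were compared between genes per kb of the longest protein-coding transcript. In WT hearts Idh2 led with 645 ± 23.2 normalized reads per kb (SD, n = 4), followed by Ogdh with 531 ± 6.8. Mdh2 at 460 ± 20.2 and Cs at 439 ± 9.4 were neighbours whose spreads met. The subunits of the NAD+-dependent isocitrate dehydrogenase lay close together, with Idh3b at 395 ± 10.6, Idh3a at 388 ± 7.5 and Idh3g at 379 ± 12.7, and their order is within the spread. Sucla2 had 347 ± 6.5 and Fh1 the least with 260 ± 16 normalized reads per kb. Mettl3 KO hearts ran from 656 ± 38.2 for Idh2 to 264 ± 12.3 for Fh1, and Idh3a (408 ± 30.7), Idh3g (386 ± 11.3) and Idh3b (385 ± 18.7) again lay within their spread. Values per kb depend on the transcript chosen, since the isoforms in use were not measured.

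**Figure D2:**
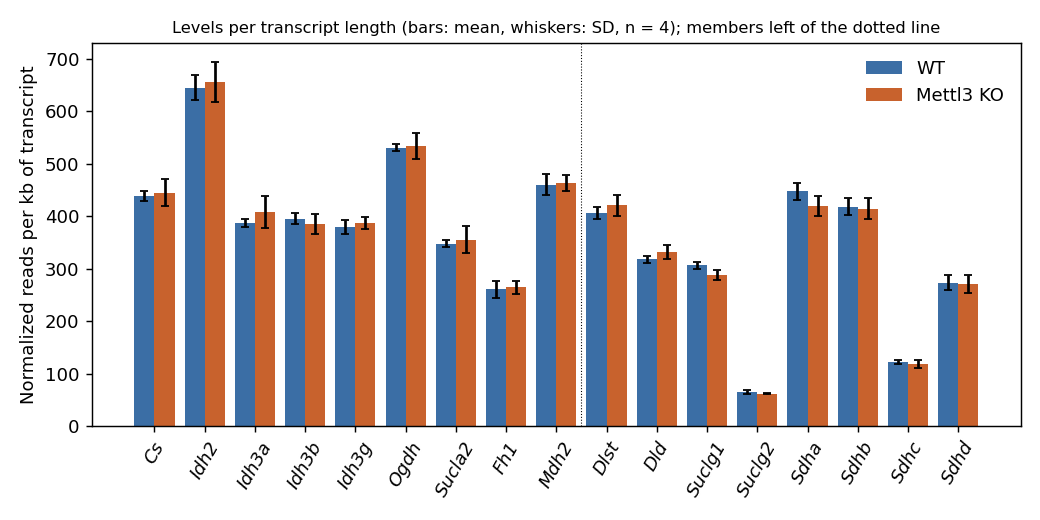
Mean normalized reads per kb of transcript (vertical axis) in WT (blue) and Mettl3 KO (orange) hearts, with SD over 4 libraries as whiskers. The members stand left of the dotted line, from 645 for Idh2 to 260 for Fh1 in WT, and the other TCA cycle subunits stand right of it.

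Ratios within a library were then compared, since they do not depend on the factor by which a library was scaled. They can still depend on depth, since duplicate removal lowers abundant transcripts, and this was not tested. Of 5 ratios, that of the beta to the alpha subunit of isocitrate dehydrogenase was the only 1 whose groups did not overlap. The log2 ratio of Idh3b to Idh3a took the WT values -0.65, -0.66, -0.66 and -0.62 and the Mettl3 KO values -0.84, -0.69, -0.78 and -0.72. Each Mettl3 KO value was below each WT value, and the mean difference was -0.11 ± 0.035 (SE). An exact two-sided permutation test gave p = 0.0286, the smallest that 4 against 4 samples allow, and p = 0.143 after Benjamini-Hochberg adjustment over the 5 ratios, so that the difference did not pass the correction. It held its sign in every leave-one-out comparison, from -0.13 to -0.083, with an exact p of 0.0571 without any 1 WT library (-0.12 to -0.10) and of 0.0286 without any 1 Mettl3 KO library.

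The other ratios overlapped between the groups. Idh3g to Idh3a differed by -0.048 ± 0.047 (SE, exact permutation p = 0.371, adjusted p = 0.371). Idh2 to Idh3a, the NADP+-linked against the NAD+-linked enzyme, differed by -0.048 ± 0.031 (SE, exact permutation p = 0.229, adjusted p = 0.321). Sucla2 to Suclg2, the ADP-forming against the GDP-forming subunit of succinyl-CoA ligase, differed by 0.11 ± 0.076 (SE, exact permutation p = 0.257, adjusted p = 0.321). Sucla2 exceeded Suclg2 by 1.81 in WT against 1.92 in Mettl3 KO hearts on the log2 scale of normalized reads, without regard to length. Mdh2 to Mdh1, the mitochondrial against the cytosolic malate dehydrogenase of the malate-aspartate shuttle, differed by -0.062 ± 0.022 (SE, exact permutation p = 0.0857, adjusted p = 0.214). Without WT replicate 1, whose ratio of -0.13 resembled the Mettl3 KO values of -0.15 to -0.12, that difference was -0.082 with an exact unadjusted p of 0.0286.

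**Figure D3:**
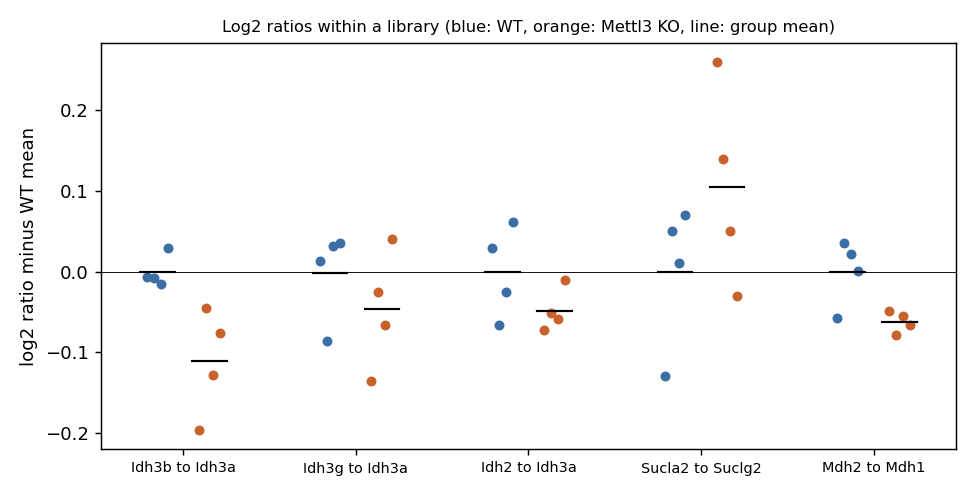
Log2 ratios of gene pairs within each library, minus the WT mean of that ratio (vertical axis), for WT (blue) and Mettl3 KO (orange), with lines at the group means. Points of the groups are apart only for Idh3b to Idh3a, with group means 0.11 apart.

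Of the 8 other TCA cycle subunits read here 0 passed the test, beside 7.91% of all genes called. Their log2 fold changes had a median of -0.031. Dlst and Dld, the other components of the alpha-ketoglutarate dehydrogenase complex, were at 0.049 and 0.064. Suclg1, the shared alpha subunit of succinyl-CoA ligase, was at -0.087, and its GDP-linked partner Suclg2 at -0.075. The subunits of succinate dehydrogenase, which is also complex II of the respiratory chain, were at -0.091 for Sdha, -0.013 for Sdhb, -0.049 for Sdhc and -0.013 for Sdhd. Sdha alone had an unadjusted p under 0.05, beside 4184 of the 20313 genes tested. Its values were 1268, 1268, 1282 and 1368 in WT against 1211, 1238, 1277 and 1144 in Mettl3 KO hearts, with an interval of -11.7% to -0.234% (unadjusted p = 0.0425, limma adjusted p = 0.221). Over these 17 subunits, members included, 0 were called, beside 7.91% of all genes, and the median log2 fold change was 0.012.

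Steps next to the cycle were read in the same fit. At the entry of pyruvate, 3 of 14 genes rose and 0 fell under the deposited scaling, beside 7.91% of all genes called (3 higher and 2 lower with equal library totals or limma voom, 2 higher and 3 lower when scaled to the cardiomyocyte markers). The 3 that rose encode subunits of the pyruvate dehydrogenase phosphatases, which remove the inhibitory phosphate from the complex. Pdp2, a catalytic subunit, had 262, 268, 253 and 230 normalized reads in WT against 353, 378, 382 and 358 in Mettl3 KO hearts, a log2 fold change of 0.54 ± 0.062 (SE), with an adjusted p = 6.99e-06 in limma. Pdp1, the other catalytic subunit, had 258, 263, 243 and 274 in WT against 386, 353, 325 and 332 in Mettl3 KO hearts, a log2 fold change of 0.42 ± 0.065 (SE), with an adjusted p = 0.000184 in limma. Every Mettl3 KO value of these genes lay above every WT value. Pdpr, the regulatory subunit, had 553, 560, 616 and 568 in WT against 677, 668, 640 and 645 in Mettl3 KO hearts, a log2 fold change of 0.20 ± 0.048 (SE), with an adjusted p = 0.0132 in limma. The call of Pdpr was lost without WT replicate 1 (log2 fold change 0.18, adjusted p = 0.0537) and when libraries were scaled to the cardiomyocyte markers (log2 fold change 0.13, adjusted p = 0.238).

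The kinases that oppose these phosphatases were not called under the deposited scaling, and they are named here after their values were seen. Pdk2, an abundant kinase of the complex, had 582, 580, 596 and 590 normalized reads in WT against 523, 548, 546 and 498 in Mettl3 KO hearts (log2 fold change -0.15, limma adjusted p = 0.0564). Pdk1 had 635, 634, 684 and 679 in WT against 623, 568, 626 and 543 in Mettl3 KO hearts (log2 fold change -0.16, limma adjusted p = 0.0718). Pdk3, a scarce kinase in these libraries, had 17, 12, 21 and 17 in WT against 27, 29, 25 and 25 in Mettl3 KO hearts (log2 fold change 0.65, limma adjusted p = 0.0598). The groups of these 3 kinases did not overlap, and of all 14 genes 7 showed no overlap beside 11.5% of all genes. Their calls turned with the settings: over 19 alternatives Pdk1 was left uncalled in 15, Pdk2 in 14 and Pdk3 in 17. Pdk1 and Pdk2 were called as lower with equal library totals (adjusted p = 0.0346 and 0.0312), limma voom (adjusted p = 0.0316 and 0.0269) and cardiomyocyte marker scaling (adjusted p = 0.0189 and 0.031). Without Mettl3 KO replicate 1, Pdk1 was called as lower (adjusted p = 0.0371), and without WT replicate 3, Pdk3 was called as higher (adjusted p = 0.0414). With equal upper quartiles, Pdk2 was called as lower (adjusted p = 0.043). Among genes with a mean of at least 10, Pdk2 was called as lower (adjusted p = 0.0396) and Pdk3 as higher (adjusted p = 0.0443). Pdk4, the kinase induced by fasting and fatty acids, varied widely within each group, from 728 to 1299 in WT and from 623 to 1227 in Mettl3 KO hearts (log2 fold change -0.0032). Mpc2, of the mitochondrial pyruvate carrier, had a log2 fold change of -0.19 (limma adjusted p = 0.0917, and 0.0482 with cardiomyocyte marker scaling). The subunits of the complex itself were near the TCA cycle members, with 0.060 for Pdha1, 0.047 for Pdhb and 0.0016 for Dlat.

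**Figure D4:**
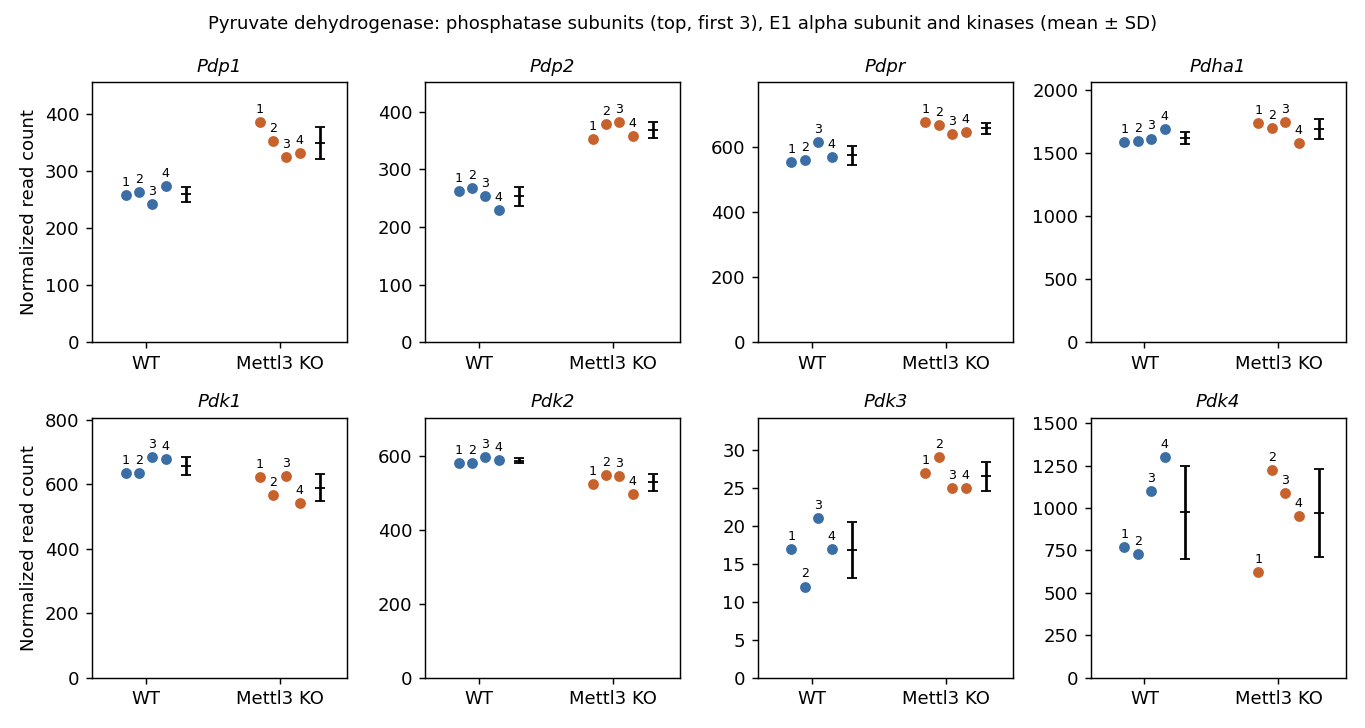
Normalized read counts (vertical axis, from 0) of the pyruvate dehydrogenase phosphatase subunits, the catalytic subunit Pdha1 and the 4 kinases in each WT (blue) and Mettl3 KO (orange) library, with mean ± SD. The groups are apart for Pdp1, Pdp2, Pdpr, Pdk1, Pdk2 and Pdk3, of which the 3 phosphatase subunits passed the test.

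Of 18 genes that carry or replace intermediates of the cycle, or encode its counterparts outside the matrix, 3 fell and 0 rose. Over all genes 3.19% were called as lower and 4.72% as higher. The groups overlapped for all 18, whereas 11.5% of all genes showed no overlap. Gpt2, the mitochondrial alanine aminotransferase that links pyruvate with alpha-ketoglutarate, had 173, 159, 196 and 136 normalized reads in WT against 141, 85, 94 and 105 in Mettl3 KO hearts, a log2 fold change of -0.65 ± 0.13 (SE), with an adjusted p = 0.00183 in limma. Its groups overlapped through Mettl3 KO replicate 1. With the atrial marker level as a covariate, a fit that leans on the same library, its log2 fold change was -0.19 (limma adjusted p = 0.597). Me1, the cytosolic malic enzyme, had a log2 fold change of -0.30 ± 0.071 (SE), with an adjusted p = 0.00977 in limma. Its call was lost without Mettl3 KO replicate 2 (log2 fold change -0.26, adjusted p = 0.0549) and without Mettl3 KO replicate 4 (-0.27, adjusted p = 0.0504). It was also lost with the atrial covariate (log2 fold change -0.066, adjusted p = 0.784). Nnt, the transhydrogenase that makes NADPH beside Idh2, had a log2 fold change of -0.35 ± 0.10 (SE), with an adjusted p = 0.0424 in limma, and its call was lost without any 1 of WT replicates 1, 2 and 4 or Mettl3 KO replicates 1, 3 and 4 (adjusted p = 0.0825 to 0.156) and with the atrial covariate, where its log2 fold change was -0.52 (adjusted p = 0.0676). The count of 3 became 1 without Mettl3 KO replicate 4. It was also 1 with the atrial covariate, where the gene called was none of these 3. The part of atrial tissue in the changes of these 3 genes was not tested. The counterparts outside the matrix were not called, with 0.074 for Mdh1 (limma adjusted p = 0.387) and -0.020 for Idh1.

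Among 12 regulators of mitochondrial genes, 4 rose and 0 fell, against 4.72% of all genes called as higher. Esrrb, the estrogen-related receptor beta, had 171, 187, 165 and 164 normalized reads in WT against 246, 224, 269 and 247 in Mettl3 KO hearts, a log2 fold change of 0.52 ± 0.073 (SE), with an adjusted p = 7.58e-05 in limma. Perm1, a muscle regulator of oxidative metabolism, had 959, 996, 999 and 938 in WT against 1249, 1169, 1223 and 1094 in Mettl3 KO hearts, a log2 fold change of 0.28 ± 0.045 (SE), with an adjusted p = 0.000273 in limma. Esrrg, the receptor gamma, which is known to act on oxidative genes of the heart, had 500, 467, 487 and 458 in WT against 554, 562, 601 and 528 in Mettl3 KO hearts, where the log2 fold change was 0.23 ± 0.052 (SE), with an adjusted p = 0.00696 in limma. Tfam, the factor that packages and transcribes mitochondrial DNA, had a log2 fold change of 0.24 ± 0.068 (SE), with an adjusted p = 0.0274 in limma, and its call was lost without any 1 of WT replicates 1, 2 and 4 or Mettl3 KO replicates 2 and 3 (adjusted p = 0.0512 to 0.104). Esrrg and Tfam were not called when libraries were scaled to the cardiomyocyte markers (log2 fold changes 0.17 and 0.18, adjusted p = 0.135 and 0.215) or with the atrial covariate (adjusted p = 0.0968 and 0.131), where their log2 fold changes were 0.24 and 0.29. The groups of all 4 did not overlap, beside 11.5% of all genes. Ppargc1a, the coactivator of these receptors, was at -0.0047 and Esrra at -0.025, and neither was called.

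**Figure D5:**
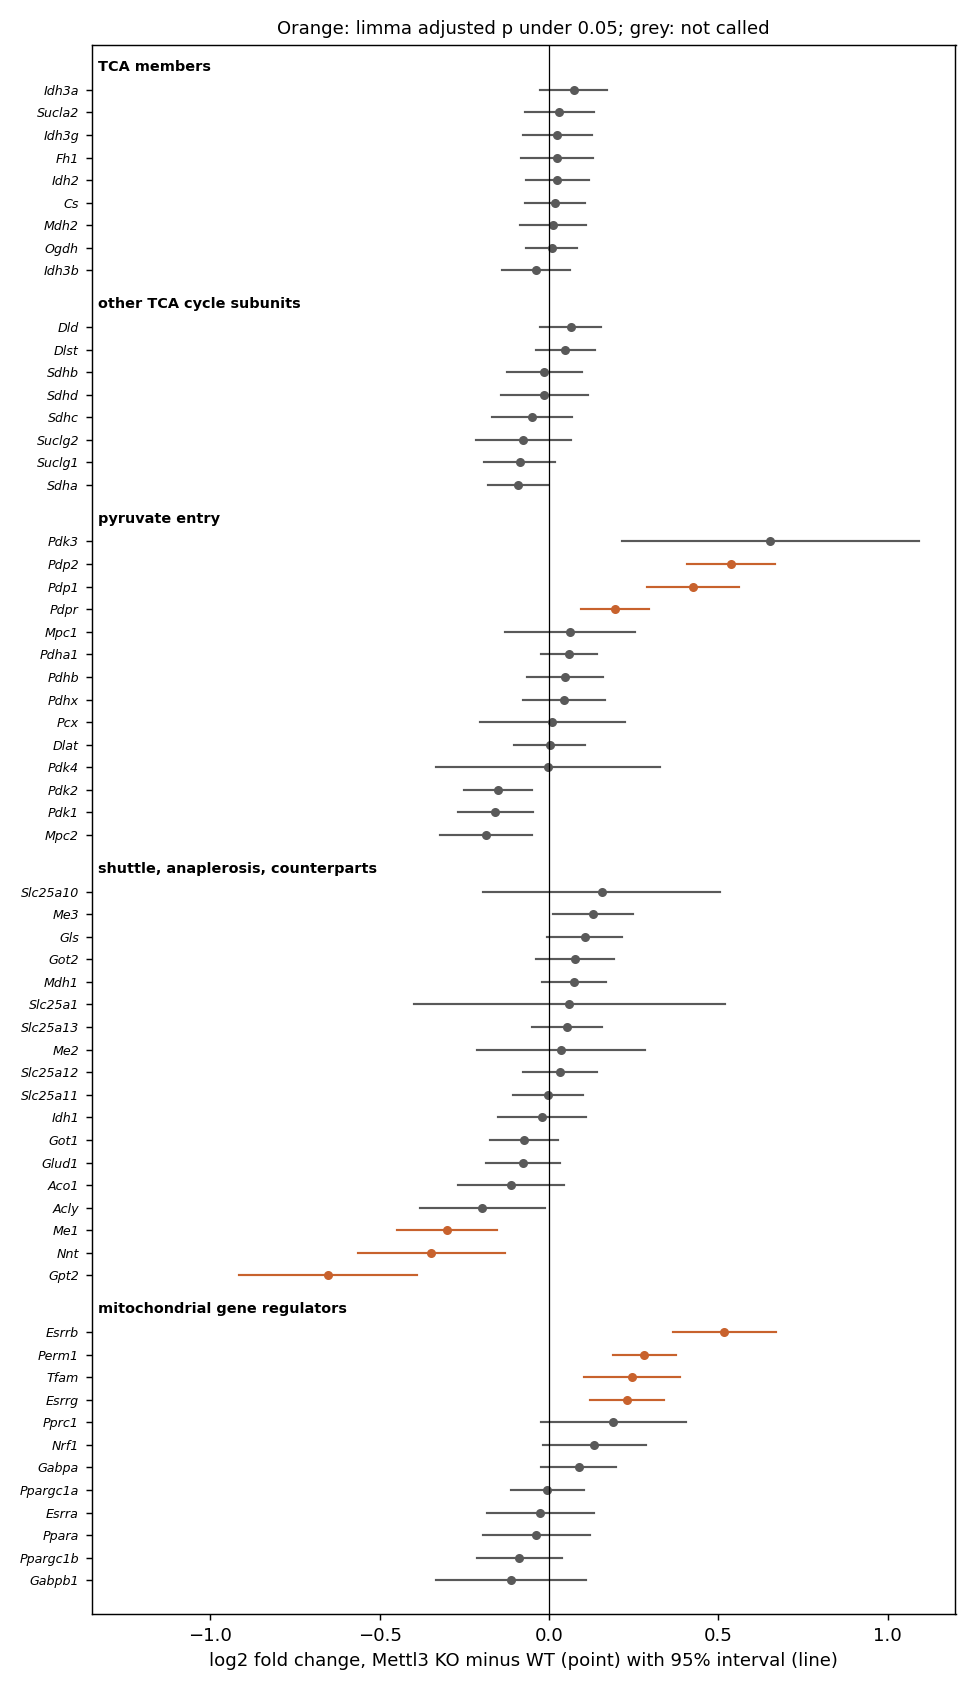
Log2 fold change of Mettl3 KO over WT (points) with 95% intervals (lines) for the members, the other TCA cycle subunits, pyruvate entry, shuttle and anaplerosis genes, and mitochondrial gene regulators. Orange marks a limma adjusted p under 0.05, which 0 of the 17 TCA cycle subunits, 3 of 14, 3 of 18 and 4 of 12 genes reached. Over all genes tested, 7.91% reached it.

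Markers of heart cell types were read beside these results, in a fit that called 4.72% of all genes as higher and 3.19% as lower. Cardiomyocyte markers were high in all libraries. Normalized reads were 4882 to 5613 for Myh6, 2525 to 3069 for Mybpc3 and 2566 to 3003 for Tnnt2. Beside 4184 of the 20313 genes tested, 2 of the 10 markers had an unadjusted p under 0.05 with limma, and 0 were called. Under the deposited scaling their estimates all lay above 0, with a median log2 fold change of 0.067. Their sums were 18065 to 19753 in WT and 18468 to 20579 in Mettl3 KO hearts. Their mean level was highest in Mettl3 KO replicate 1, the library with the largest estimated scaling factor (1.109). It was lowest in WT replicate 3 (factor 0.960), while the smallest factor was 0.927 in WT replicate 2. Removing duplicates lowers abundant transcripts, and its part in these marker levels was not tested. Of 8 fibroblast markers 7 rose (sums of 3648 to 4172 in WT against 4711 to 5671 in Mettl3 KO hearts). Of 8 endothelial markers 4 fell (5172 to 5361 and 4466 to 4867), and 2 did so without WT replicate 2 or without Mettl3 KO replicate 3. Of 8 macrophage markers 1 fell (1157 to 1428 and 1140 to 1349), and 0 did so without WT replicate 1 or 3 or Mettl3 KO replicate 3 or 4. Of 8 smooth muscle and pericyte markers 1 fell (2661 to 2871 and 2507 to 2814), while 4 had estimates above 0. Without Mettl3 KO replicate 1, 3 of them were called, counted in either direction. Of 4 adipocyte markers tested, Lpl and Fabp4, which hold nearly all of the list sums of 3424 to 3771 and 2998 to 3415, fell, while Plin1 and Adipoq, at 0 to 4 normalized reads in every library with the higher mean in Mettl3 KO hearts, were not called. Of these, 0 fell without WT replicate 1 or 4 or Mettl3 KO replicate 4, and 1 without Mettl3 KO replicate 1, 2 or 3. All 3 atrial markers rose, with sums of 0 to 38 in WT hearts and 33 to 541 in Mettl3 KO hearts, where replicate 1 resembled WT. Of these 3, 2 were called with limma voom or without Mettl3 KO replicate 2, 3 or 4, and 0 with robust empirical Bayes. With the atrial level as a covariate, 7 fibroblast, 1 endothelial, 0 macrophage, 0 smooth muscle and 0 adipocyte markers were called. In the same fit the members' log2 fold changes reached 0.19 for Idh3a (limma adjusted p = 0.126) and 0.17 for Sucla2 (limma adjusted p = 0.157), and 0 of 9 were called. This fit leans on Mettl3 KO replicate 1, the only Mettl3 KO library with an atrial level like that of WT. The part of these cell types in the members' values was not tested.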

How the data were processed

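RNA-seq libraries (stranded, single-end) had been made from total RNA of 8 mouse hearts. The authors' methods name Trimmomatic 0.39 for trimming, STAR 2.7.11a for alignment to mm39, Picard 3.1.1 for removal of duplicates and featureCounts 2.0.4 for strand-specific counting over exons. Per these methods, the authors dropped ribosomal, mitochondrial and multi-mapping reads, and those overlapping several genes, and normalized with DESeq2. The deposited values are a score: normalized read counts that the authors rounded to whole numbers, so that count models were not used. Removing duplicates of single-end reads lowers abundant transcripts. The reads behind each library were estimated from the spacing of its low values. limma 3.58.1 (R 4.3.3, trend option, a single genotype term) was run on log2(value + 1) of the 20313 genes whose mean reached 1, which left out 2732, and two-sided p-values were adjusted over all tested genes by Benjamini-Hochberg (threshold 0.05). The script was tested on simulated data. Ratios were tested by exact permutation (scipy 1.17.1). The labels name the libraries as replicates of a group, and p-values measure only the spread between them.

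The members and gene lists were chosen with earlier results of these data known. Named genes were the members, Mettl3, the other TCA cycle subunits, called genes of each further list (at most 5), genes of a ratio and 3 cardiomyocyte markers. Other genes (the kinases Pdk1 to Pdk4, Mpc2, Pdha1, Pdhb, Dlat, Idh1, Ppargc1a, Esrra, Csl, Plin1 and Adipoq) were named after their values were seen. Marker lists of other cell types are given by counts and sums, with genes named only for the adipocyte list. Alternatives were other scalings, pseudocounts, filters, limma voom, robust estimation, the replicate number as a block, an atrial covariate and each library left out in turn. Gene positions are those of the deposited table (mm39). Transcripts came from GENCODE M21 (GRCm38), promoters from RefSeq (GRCm38.p6), and no position was carried between builds. 1 gene of the cycle is not reported here.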

Additional observations from a re-analysis of the deposited data

Results flagged for a closer look

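In groups of 4 libraries, a value was set apart when its gap to the nearest other exceeded Dixon's critical share of the group's range. Among 40 groups searched 3 were set apart, where chance gives 2.0, and all 3 concern other TCA cycle subunits rather than members. In Mettl3 KO hearts Dld had 793 normalized reads in replicate 4 against 857 to 865 in the others, a gap of 0.889 of the range. In Mettl3 KO hearts Sdhb had 439 in replicate 4 against 484 to 486, a gap of 0.957. In WT hearts Sdha had 1368 in replicate 4 against 1268 to 1282, a gap of 0.860.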

How the results depend on the processing

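Over 19 alternatives the 9 members gave 171 fold changes, of which 0 were called with limma (log2 fold changes of -0.10 to 0.19, smallest adjusted p = 0.126) and 17 had the opposite sign to the value reported. Scaling to the cardiomyocyte markers turned Cs to -0.045, Idh2 to -0.039, Idh3g to -0.039, Ogdh to -0.056, Sucla2 to -0.033, Fh1 to -0.039, Mdh2 to -0.052 and Dlst to -0.015. It moved the median of all genes to -0.072 and the calls from 958 higher and 649 lower (59.6% higher) to 490 and 808 (37.8% higher). The part of duplicate removal in the marker levels behind this scaling was not tested. Ogdh also turned to -0.0027 with equal library totals, -0.0019 with equal upper quartiles and -0.0024 with limma voom, and Sdhb to 0.0056 with the atrial covariate. With each library left out in turn, signs changed within -0.0073 to 0.054 for Cs, -0.0025 to 0.059 for Idh2, -0.020 to 0.033 for Ogdh, -0.0084 to 0.075 for Sucla2, -0.0080 to 0.056 for Fh1, -0.018 to 0.036 for Mdh2, -0.033 to 0.022 for Sdhb and -0.049 to 0.025 for Sdhd. Signs held for Idh3a (0.038 to 0.12), Idh3b (-0.055 to -0.0034) and Idh3g (0.0067 to 0.043). The 1607 genes called became 903 with the atrial covariate and 1005 to 1593 with a library left out, the lowest without Mettl3 KO replicate 3. The genes called at pyruvate entry numbered 2 to 5, and the regulators called numbered 2 with cardiomyocyte scaling or the atrial covariate. The ratio of Idh3b to Idh3a ran from -0.13 to -0.083 with a library left out, that of Mdh2 to Mdh1 from -0.082 to -0.051, Idh3g to Idh3a from -0.077 to -0.017, Idh2 to Idh3a from -0.070 to -0.028 and Sucla2 to Suclg2 from 0.054 to 0.15. Same-numbered libraries did not deviate together (correlations of -0.041 to 0.088), and libraries of unlike number gave -0.185 to 0.198. Expression values alone cannot tell whether the animals were paired. With the replicate block 1346 genes and 0 members were called, and the Idh3b to Idh3a difference of -0.11 had an exact sign-flip p of 0.125, the smallest that 4 pairs allow. The causes were not tested. If reads were independent molecules, depth would give single members a counting error of about 2.11% to 4.46%. The spread in WT hearts was below that error for 6 members, so it is not a lower limit here.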
